A study of Mus musculus with 6 samples.

Results

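The genes of the cytosolic translation factors, with others that share their symbols, are described here in mouse neural stem cells. Members were chosen by symbol, as the eukaryotic initiation factors (Eif), the elongation factors (Eef) and the release and recycling factors Etf1, Gspt1 and Abce1. Also taken were the ATP-binding cassette proteins Abcf1 to Abcf3 and the reinitiation factors Denr, Mcts1 and Mcts2. The poly(A)-binding proteins and the La-related proteins (Larp) completed the list, and Eif2s3y and Eif2ak2 were left out by name. The rule found 75 genes among the 12316 gene rows of the authors' deposited table, each in 1 row, and used no measured value. All 75 are referred to below as translation factor genes. Some encode regulators, such as the eIF2 kinases, or proteins with other roles, such as Larp7, Eif4a3 and Eef1e1. The libraries came from neural stem cells of E14.5 embryos of the CD-1 strain, bought commercially and grown on laminin with EGF and bFGF. All carried a lentiviral short hairpin RNA (shRNA) and were selected with puromycin: 2 libraries had Sox4 shRNA 1, 2 had Sox4 shRNA 2 and 2 had a scrambled shRNA, and the libraries of each hairpin are numbered by passage. Sox4 is a transcription factor of the SoxC group.

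Eukaryotic initiation factors bring the small ribosomal subunit, loaded with eIF2, GTP and the initiator tRNA, to the capped end of an mRNA, from where it scans to a start codon. The cap complex eIF4F joins the cap-binding protein eIF4E, the scaffold eIF4G and the helicase eIF4A, and eIF3 connects it to the ribosome. Elongation factors then deliver aminoacyl-tRNAs and move the ribosome along, and release and recycling factors end the round. Kinases that phosphorylate eIF2 and proteins that sequester eIF4E lower initiation under stress or when the kinase complex mTORC1 is less active, and in neural precursors such control helps set which stored mRNAs are translated.

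The authors' comparison gives each gene 1 level in a first and 1 in a second condition. The conditions are not named in the file and were not assigned here, so every fold is that of the second over the first condition. Levels are given as FPKM (fragments scaled by transcript length and by the number of mapped fragments), which Cuffdiff writes in such columns, although the header does not state the unit. Genes with the authors' significance flag, set at a Cuffdiff q under 0.05, are referred to as called, and only these are said to have risen or fallen. The table holds no value per library, so the depth is unknown, no SD can be given and the spread between passages cannot be shown. Sox4, the targeted gene, stood at 83.9 FPKM in the second and 126.8 FPKM in the first condition of the authors' deposited table, with a log2 fold of -0.60 and a q of 0.0543, and was not called. Of 10 neural stem cell markers 9 are among the rows, and 2 rose and 1 fell: Nes and Notch1 had log2 folds of 0.79 and 0.61, and Fabp7 fell to 2286 FPKM in the second condition, against 4620 FPKM in the first, in the authors' deposited table (log2 fold -1.02, q = 0.00304). The summed level of these 9 was 3950 FPKM in the second and 6130 FPKM in the first condition. Fabp7 alone made up 2286 and 4620 FPKM of these sums, so they mostly show that gene. The median log2 fold of the 9 was 0.03. Vim and Slc1a3, at 775 and 565 FPKM in the second and 709 and 544 FPKM in the first condition of the authors' deposited table, were not called. Of 5 astrocyte markers 3 fell and 1 rose, and their summed level was 31.5 FPKM in the second and 76.2 FPKM in the first condition. Of the oligodendrocyte lineage markers 1 of 3 fell, 0 of 4 neuronal markers were called, and 0 of 4 microglial and 0 of 6 fibroblast or vessel markers are among the rows. The part of these markers in the values below was not tested.

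None of the 75 translation factor genes was called by the authors' Cuffdiff test, against 4.99% of all rows called, 3.17% as higher and 1.83% as lower in the second condition. At an unadjusted p under 0.05 there were 7 members, 5 higher and 2 lower, which is 9.33% of the members, against 17.5% of all rows (9.96% higher and 7.53% lower). The members' log2 folds ran from -0.50 to 0.54, with a median of -0.0013 beside 0.0033 for all rows. The numbers on each side of 0 were nearly equal, with 37 members higher and 38 lower in the second condition. Folds within 0.25 of 0 on the log2 scale made up 73.3% of the members and 55.7% of all rows. The rows differ in level, with a median of 51.5 FPKM for members and 12.7 FPKM for all rows in the second condition. These shares and those at an unadjusted p under 0.05 were not matched for level, so they do not show that the members are unusually stable. In bulk RNA of this kind, fewer cells of a type and less RNA per cell cannot be told apart.

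**Figure D1:**
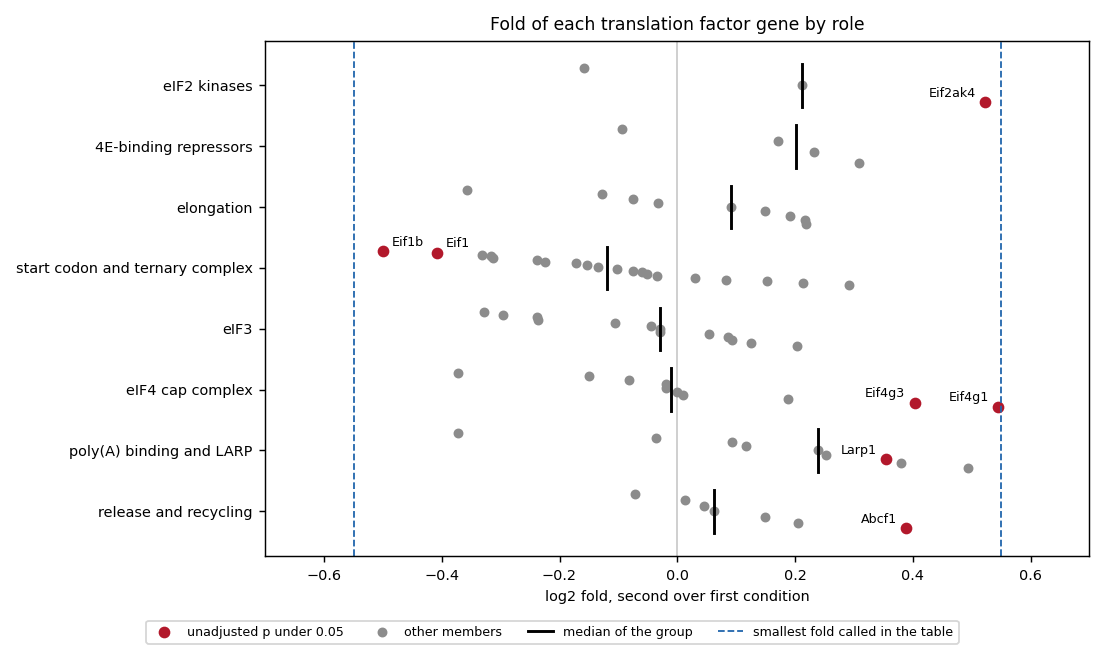
Log2 fold of the second over the first condition (x axis) for each of the 75 translation factor genes, grouped by role (y axis); points are single genes, black bars group medians, red points genes with an unadjusted p under 0.05, and dashed lines the smallest absolute fold called in the whole table, 0.55. All members lie inside the dashed lines.

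The factors were abundant transcripts, and all 75 reached 1 FPKM and 72 reached 5 FPKM in at least 1 condition. Their median level was 51.5 FPKM in the second and 52.2 FPKM in the first condition, against 12.7 and 12.5 FPKM over all rows. In the second condition 68 of the 75 members stood above the median of all rows, and the median member lay at percentile 85.1. Among the 2050 rows at 50 FPKM or more in either condition 5.80% were called, and 0 of the 39 members at that level were. The smallest absolute log2 fold called anywhere in the table was 0.55, just above the largest of a member, 0.54, and 85.3% of all rows had a fold no larger than that. A gene that misses the threshold is not shown to be unaltered, and with 1 level per condition no interval can be put on these folds.

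**Figure D2:**
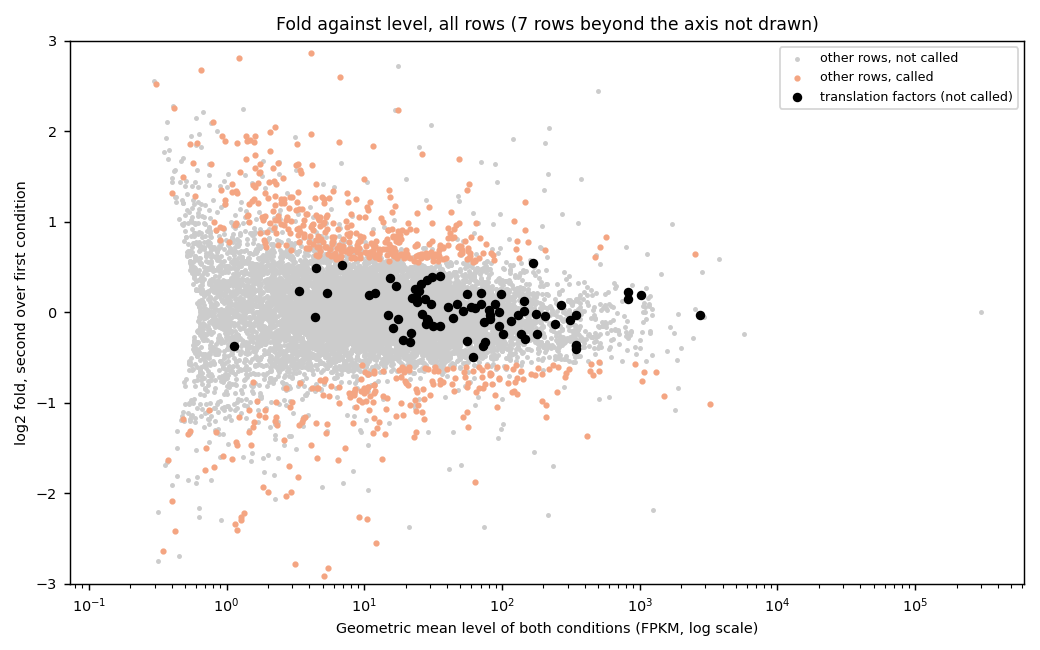
Log2 fold of the second over the first condition (y axis) against the geometric mean of both levels in FPKM (x axis, log scale) for all rows; black points are the 75 translation factor genes, orange points other called rows and grey points other rows not called. The black points lie mostly at levels above 10 FPKM and within 0.54 of 0, inside the band of rows that were not called; 7 rows beyond a log2 fold of 3 are not drawn.

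The start codon and ternary complex (eIF2, GTP and initiator tRNA) group was formed by symbol. It took the Eif1 genes, the Eif2 genes without the kinases, Eif5, Eif5b, Denr, Mcts1 and Mcts2. It thus also holds Eif1ad, the eIF2B subunits and the reinitiation factors, which are not start codon or initiator tRNA factors proper. Of its 20 genes 15 were lower in the second condition, beside 6097 of all 12316 rows. In this group 0 were called, and the median log2 fold was -0.12. Eif1, which guards the fidelity of start codon choice (mm10, chromosome 11, 100319885 to 100322096), stood at 301 FPKM in the second and 400.0 FPKM in the first condition of the authors' deposited table, which gives a log2 fold of -0.41 (p = 0.0224, q = 0.202). Its paralog Eif1b (chromosome 9, 120492232 to 120495330) stood at 51.5 FPKM in the second and 72.9 FPKM in the first condition of the authors' deposited table, the lowest log2 fold of all members at -0.50 (p = 0.013, q = 0.147). Exons of Eif1b overlap those of D830035M03Rik on the other strand, and whether reads were counted by strand is not given in the sources used here; such overlaps, on either strand, exist for 27 of the 75 members in GENCODE M21. Both Eif1 paralogs thus lay on the same side, and Eif1 was 5.85 times as abundant as Eif1b in the second and 5.49 times in the first condition. Eif1ax and Eif1a, which act with Eif1 during scanning, had log2 folds of 0.08 and 0.15 in the authors' deposited table, with Eif1ax at 275 FPKM in the second and 260.0 FPKM in the first condition.

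The 3 subunits of eIF2 differed in sign. Eif2s1, the subunit that the stress kinases phosphorylate, stood at 75.3 FPKM in the second and 64.9 FPKM in the first condition of the authors' deposited table (log2 fold 0.21, q = 0.604). Eif2s2 stood at 50.2 FPKM in the second and 62.5 FPKM in the first condition there (log2 fold -0.32, q = 0.383 in the authors' deposited table). Eif2s3x, the X-linked GTP-binding subunit, stood at 80.7 and 79.1 FPKM in the second and first condition of the authors' deposited table. Of the 5 subunits of eIF2B, which recharges eIF2 with GTP, 4 were lower in the second condition, at log2 folds from -0.31 for Eif2b1 to 0.29 for Eif2b3 in the authors' deposited table. Eif5, the factor that triggers GTP hydrolysis by eIF2, had a log2 fold of -0.24 and Eif5b, which joins the ribosomal subunits, of -0.05 in the authors' deposited table. Eif5b was low, at 4.30 FPKM in the second and 4.46 FPKM in the first condition there. The reinitiation factors Denr, Mcts1, Mcts2 and Eif2d had log2 folds of -0.13, -0.10, -0.23 and -0.17 in the authors' deposited table. Eif2a, a further protein that can bind initiator tRNA, had a log2 fold of -0.33 in the authors' deposited table (q = 0.813). Mcts2 is a retrotransposed copy of Mcts1, so reads of these genes may have been divided between them.

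Of the 3 eIF2 kinase genes among the members, which leave out Eif2ak2 by rule, Eif2ak4 had the largest fold. It encodes the amino acid sensor GCN2 (chromosome 2, 118388618 to 118475234). Eif2ak4 stood at 8.20 FPKM in the second and 5.70 FPKM in the first condition of the authors' deposited table, which gives a log2 fold of 0.52 (p = 0.0119, q = 0.139). The endoplasmic reticulum stress kinase gene Eif2ak3 stood at 12.8 FPKM in the second and 11.1 FPKM in the first condition of the authors' deposited table. The haem-regulated kinase gene Eif2ak1 stood at 29.9 FPKM in the second and 33.4 FPKM in the first condition of the authors' deposited table. The kinase genes were thus among the less abundant members, and their folds did not share a sign.

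The 13 subunit genes of eIF3 lay within a narrow range, from 41.3 to 202 FPKM in the second and 39.8 to 209 FPKM in the first condition of the authors' deposited table. Their median log2 fold was -0.03, 5 were higher and 8 lower, and 0 were called; with the median of rows of similar length subtracted, the median turned to 0.01, with 7 above 0. The lowest fold was that of Eif3m, at 67.8 FPKM in the second and 85.1 FPKM in the first condition of the authors' deposited table (log2 fold -0.33, p = 0.0797, q = 0.383). The highest was that of Eif3d, which in human cells can bind the cap of some mRNAs, at 106 FPKM in the second and 91.7 FPKM in the first condition of the authors' deposited table (log2 fold 0.20, q = 0.638). Eif3f and Eif3h, which form a module with Eif3m in the human complex, both had log2 folds of -0.24 in the authors' deposited table, and Eif3e had one of -0.30. The core subunits Eif3a, Eif3b and Eif3c had log2 folds of 0.09, 0.13 and -0.03 in the authors' deposited table. Eif3l, the most abundant subunit transcript, stood at 202 FPKM in the second and 209 FPKM in the first condition of the authors' deposited table.

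In the cap complex the scaffold genes Eif4g1 and Eif4g3 had the highest folds as deposited; with the median of rows of similar length subtracted, the helicase gene Eif4a1 (0.25) stood above Eif4g3 (0.17), and the related Eif4g2 was at -0.32. Eif4g1, the main eIF4G scaffold (chromosome 16, 20668313 to 20692884), stood at 202 FPKM in the second and 139 FPKM in the first condition of the authors' deposited table. The log2 fold of 0.54 was the highest of all members, with p = 0.00455 and q = 0.0794, the lowest q of the group, in the authors' deposited table. The small nucleolar RNA gene Snord66 overlaps an exon of Eif4g1 on the same strand. Eif4g3, a second scaffold (chromosome 4, 137993022 to 138208508), stood at 41.1 FPKM in the second and 31.1 FPKM in the first condition of the authors' deposited table (log2 fold 0.40, p = 0.0282, q = 0.229). The related Eif4g2, which lacks the region that binds eIF4E, stood at 305 FPKM in the second and 322 FPKM in the first condition of the authors' deposited table, which gives a log2 fold of -0.08. Eif4e itself stood at 94.7 and 94.8 FPKM in the second and first condition of the authors' deposited table, the fold nearest 0 of all members.

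The helicase paralogs stood on opposite sides of 0. Eif4a1 stood at 1096 FPKM in the second and 962 FPKM in the first condition of the authors' deposited table (log2 fold 0.19, q = 0.734). Eif4a2 stood at 63.6 FPKM in the second and 82.3 FPKM in the first condition of the authors' deposited table (log2 fold -0.37, p = 0.0801, q = 0.384). Eif4a1 was thus 17.2 times as abundant as Eif4a2 in the second and 11.7 times in the first condition. Reads of such close paralogs can be split between them. Small nucleolar RNA genes overlap exons of Eif4a2 on the same strand, and Rfc4 overlaps them on the other strand. Exons of Eif4a1 are overlapped by Gm22988 and Gm24029 on the same strand. The helicase cofactors Eif4b and Eif4h had log2 folds of 0.01 and -0.02, and Eif4a3, a core protein of the exon junction complex, of -0.15 in the authors' deposited table. Eif4e2, a cap-binding protein that represses translation, stood at 26.1 and 26.4 FPKM in the second and first condition of the authors' deposited table.

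Of the 4 genes for proteins that hold eIF4E away from eIF4G, 3 were higher in the second condition and 0 were called. Eif4ebp2, the most abundant 4E-BP transcript and the main form known from brain, stood at 112 FPKM in the second and 120 FPKM in the first condition of the authors' deposited table. Eif4ebp1 had a log2 fold of 0.17 and Eif4ebp3, at 3.63 FPKM in the second and 3.09 FPKM in the first condition, of 0.23 in the authors' deposited table. The 4E transporter gene Eif4enif1 had the highest fold of the group, with 28.7 FPKM in the second and 23.2 FPKM in the first condition of the authors' deposited table (log2 fold 0.31, q = 0.814). None of these folds had an unadjusted p under 0.05, the lowest p of the group being 0.45.

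**Figure D3:**
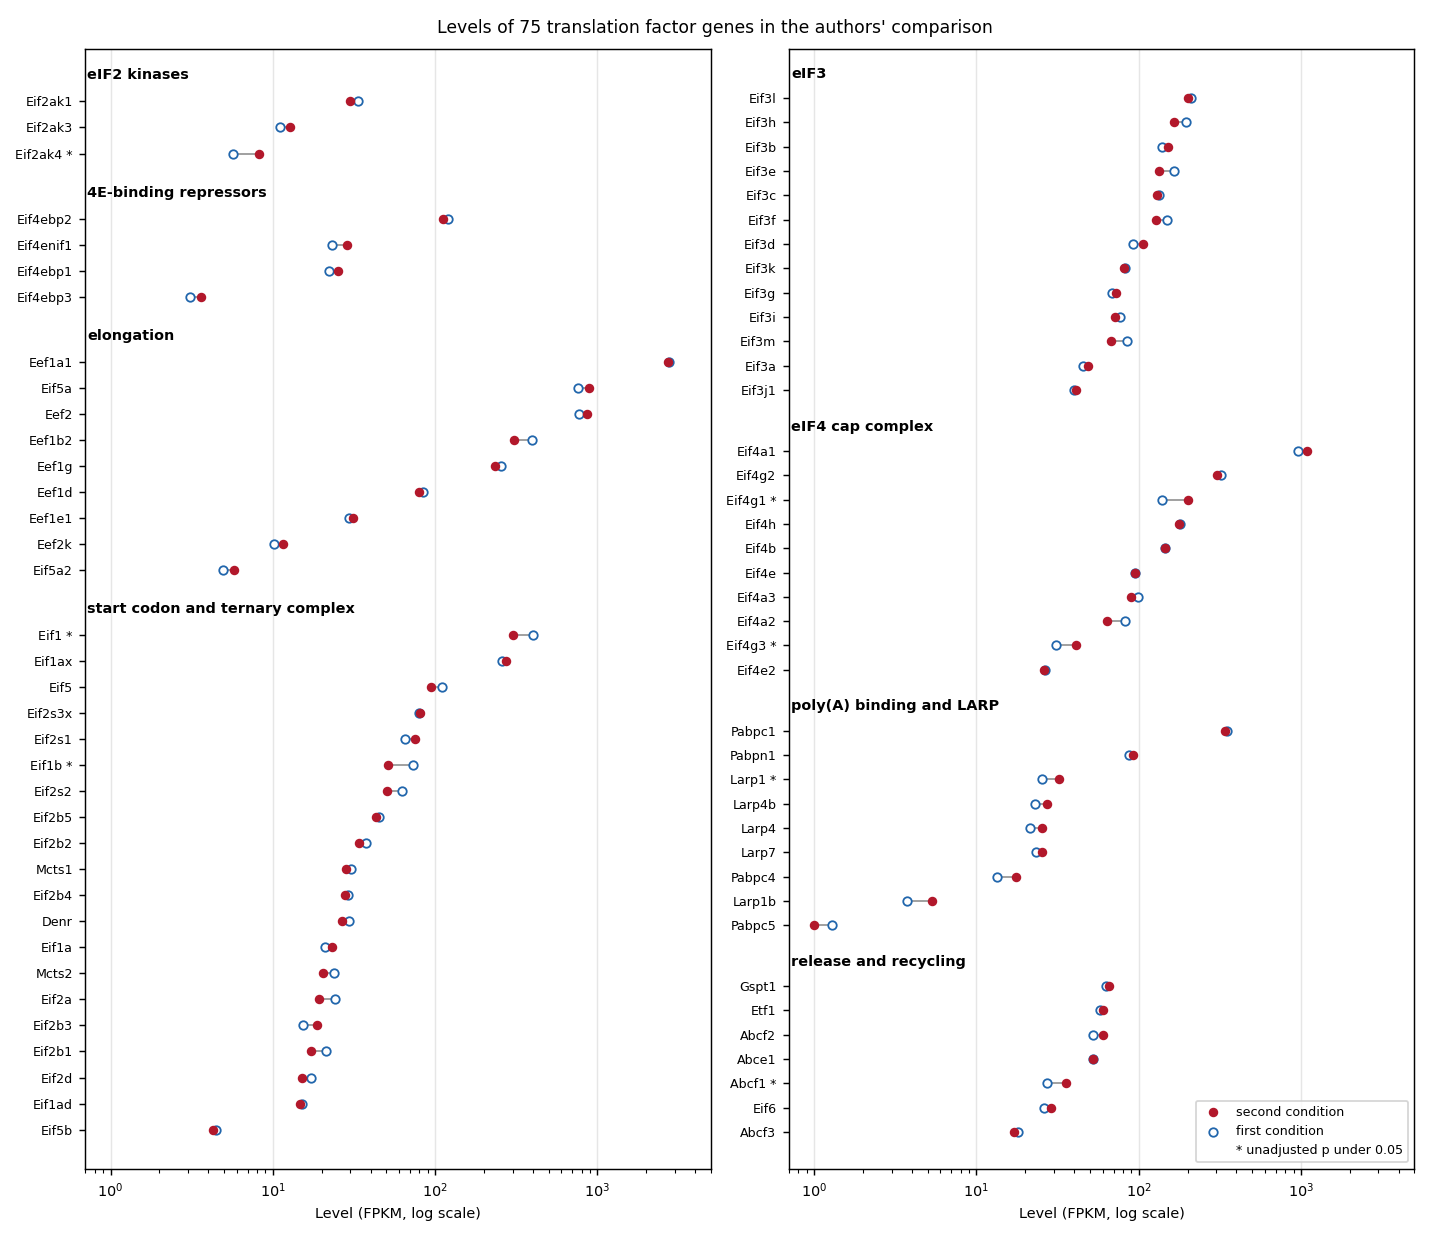
Level in FPKM (x axis, log scale) of each translation factor gene (y axis) in the second condition (filled red) and the first condition (open blue), grouped by role and ordered within a role by the level in the second condition; an asterisk marks an unadjusted p under 0.05. Levels span from 0.997 FPKM for Pabpc5 to 2713 FPKM for Eef1a1 in the second condition. The points of a gene lie close together on this wide scale, with the largest fold being the 1.46-fold difference of Eif4g1.

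Of the poly(A)-binding and La-related genes 7 of 9 were higher in the second condition and 0 were called. All 5 Larp genes were higher, with log2 folds from 0.12 for Larp7, a protein of the 7SK small nuclear RNA, to 0.49 for Larp1b in the authors' deposited table. Larp1, which binds mRNAs with a terminal oligopyrimidine tract downstream of mTORC1 (chromosome 11, 58009064 to 58062034), stood at 32.5 FPKM in the second and 25.4 FPKM in the first condition of the authors' deposited table. That is a log2 fold of 0.35 (p = 0.0464, q = 0.298 in the authors' deposited table). Larp1b stood at 5.29 FPKM in the second and 3.75 FPKM in the first condition of the authors' deposited table (p = 0.0882, q = 0.403). Pabpc1, the main cytoplasmic poly(A)-binding protein, stood at 342 FPKM in the second and 350.3 FPKM in the first condition of the authors' deposited table, which gives a log2 fold of -0.04. Its paralog Pabpc4 stood at 17.5 FPKM in the second and 13.5 FPKM in the first condition there (log2 fold 0.38, p = 0.0612, q = 0.339 in the authors' deposited table). Pabpc1 was 19.5 times as abundant as Pabpc4 in the second and 26.0 times in the first condition. Pabpc5, the least abundant member, was at 0.997 FPKM in the second and 1.29 FPKM in the first condition of the authors' deposited table.

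The elongation factors included the most abundant members and had no unadjusted p under 0.05. Eef1a1, which delivers aminoacyl-tRNA to the ribosome, stood at 2713 FPKM in the second and 2775 FPKM in the first condition of the authors' deposited table, which gives a log2 fold of -0.03. It has processed pseudogenes, so its level depends on how shared reads were counted. The subunits of its exchange factor, Eef1b2, Eef1d and Eef1g, were lower in the second condition as well, at log2 folds of -0.36, -0.08 and -0.13 in the authors' deposited table. Of these, Eef1b2 came nearest to an unadjusted p of 0.05, at 307 FPKM in the second and 393 FPKM in the first condition of the authors' deposited table (p = 0.0517, q = 0.313). Exons of Eef1b2 overlap those of Ndufs1 on the other strand and of Gm27390 on the same strand. Eef2, which translocates the ribosome, stood at 860 FPKM in the second and 776 FPKM in the first condition, and the gene of its inhibitory kinase, Eef2k, at 11.6 and 10.2 FPKM, in the authors' deposited table. Eif5a, the hypusine-bearing factor that relieves stalled ribosomes, stood at 887 FPKM in the second and 762 FPKM in the first condition of the authors' deposited table (log2 fold 0.22, q = 0.614). Its paralog Eif5a2 had the same log2 fold to 2 decimals, 0.22, at 5.74 FPKM in the second and 4.94 FPKM in the first condition of the authors' deposited table. Eef1e1, whose protein sits in the multisynthetase complex, had a log2 fold of 0.09 in the authors' deposited table.

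The 7 genes grouped as release and recycling also include Abcf1 to Abcf3 and Eif6, which are not release or recycling factors in the strict sense. Of the 7 genes 6 were higher in the second condition, most by little, beside 6219 of all 12316 rows, and 0 were called. With the median of rows of similar length subtracted, 5 stood above 0 and 2 below. Abcf1, an ATP-binding cassette protein that associates with eIF2 (chromosome 17, 35956819 to 35969761), stood at 35.7 FPKM in the second and 27.3 FPKM in the first condition of the authors' deposited table (log2 fold 0.39, p = 0.0339, q = 0.252). The release factor genes Etf1 and Gspt1 stood at 60.4 and 65.2 FPKM in the second and at 57.9 and 63.2 FPKM in the first condition of the authors' deposited table. Abce1, the recycling ATPase, stood at 52.5 and 52.0 FPKM in the second and first condition of the authors' deposited table. Eif6, which keeps free large ribosomal subunits apart from small ones, stood at 29.0 FPKM in the second and 26.2 FPKM in the first condition of the authors' deposited table.

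Several translation factor mRNAs are known to begin with a terminal oligopyrimidine (TOP) tract, a C followed by a run of C and T bases, through which mTORC1 and Larp1 control their translation together with that of ribosomal protein mRNAs. The windows below are shown to compare the start regions of 4 members of this class, Eef1a1, Eef1b2, Eif3f and Eif4b, with those of Eif2s3x, whose annotated start carries such a tract, and Eif4g1, which had the highest fold. Each is 30 bases of RefSeq sequence on GRCm38.p6, 5′ to 3′ on the gene's strand, and capitals mark the longest run of C and T that begins with C between 20 bases before and 30 bases after the annotated start. Each window begins 8 bases before that run, so the annotated start is base 13 of the window of Eif3f, base 10 of that of Eif2s3x, base 14 of that of Eef1a1 and base 8 of that of Eif4g1. The windows of Eif4b and Eef1b2 begin 2 and 9 bases after the annotated start and do not hold it.
Eif3f, chr7:108934403-108934432, plus strand: gttctaggCTCTCTCTCTTTCTCggcaaga
Eif2s3x, chrX:94212631-94212660, minus strand: agcattttCCTTTTCTCTCCgagcaagatg
Eef1a1, chr9:78481708-78481737, minus strand: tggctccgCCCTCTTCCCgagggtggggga
Eif4b, chr15:102073775-102073804, plus strand: ccgcgccaCCCCCTCgcgctgctttacgaa
Eef1b2, chr1:63176840-63176869, plus strand: agccgaggCCTTgcgtccgagcgctttcgt
Eif4g1, chr16:20672720-20672749, plus strand: cagctccgCCCTCTgcgccggtcacgtggg

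In the windows shown, the longest run had 15 bases in Eif3f, 12 in Eif2s3x and 10 in Eef1a1, and 4 to 7 in the others. Long runs also occur in members not shown, such as 19 bases in Eif2b5. Eef2, also classically known as a TOP mRNA and not shown, had a run of 7. A C at the annotated start followed by at least 4 bases of C or T, read on the gene's strand, was present in 2 of 78 windows of the 61 members matched in the promoter table used here (2.56%), those of Eif3f and Eif2s3x, and in 2.51% of all 32851 windows. Among 57 cytosolic ribosomal protein genes, chosen by symbol, it was present in 19.1% of 68 windows. A run of at least 8 such bases near the start was found in 19.2% of the members' windows, 15.6% of all windows and 55.9% of those of ribosomal protein genes. An annotated start can lie some bases from the one used in these cells, so a window without the tract says only that these letters are not at that place.

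The 7 members listed here as classical TOP mRNAs had a median log2 fold of -0.04, with 5 lower and 2 higher in the second condition and 0 called. Besides Eef1a1, Eef1b2, Eef2 and Pabpc1 above, Eif3e stood at 134 FPKM in the second and 164 FPKM in the first condition of the authors' deposited table (log2 fold -0.30, q = 0.426). Eif3f stood at 128 FPKM in the second and 150.3 FPKM in the first condition, and Eif4b at 146 and 145 FPKM, in the authors' deposited table. The 68 other members had a median log2 fold of 0.02. They are not a set without TOP mRNAs, since Eif2s3x, with a tract at its annotated start, is among them. Of 78 cytosolic ribosomal protein genes chosen by symbol, 70 were lower in the second condition, with a median log2 fold of -0.28. Of these 78, 8 fell and 2 rose, Rpl12 and Rpl8 with log2 folds of 0.64 and 0.61 in the authors' deposited table, so that 12.8% were called, beside 4.99% of all rows. The symbol pattern did not match Rps3a1 and Rpl22l1, so the counts leave them out. Both fell, with log2 folds of -0.55 (q = 0.0485) and -0.78 (q = 0.0105) in the authors' deposited table. The 78 are also the shorter transcripts, with a median of 926 nt beside 2726 nt for the translation factors. With the median of all rows of similar length subtracted, the median of the 78 was -0.079, with 19 above 0; the difference between the groups was not tested.

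Among the translation factors the sign of the fold moved with transcript length. Of the 37 members longer than their median of 2726 nt, 25 were higher in the second condition, with a median log2 fold of 0.08, and of the 38 others 12 were higher, with a median of -0.09. All rows leaned the same way at this division, with 59.7% of the longer and 37.0% of the shorter transcripts higher in the second condition. Across the 75 members, log2 fold and log10 length had a Pearson r of 0.41 and a Spearman rho of 0.41, and across the 12154 rows with a known length 0.23 and 0.30; genes are not independent replicates, and all points share the same libraries. The 5 members with an unadjusted p under 0.05 and a higher level had transcripts of 3161 nt (Abcf1), 5298 nt (Eif2ak4), 5638 nt (Eif4g1), 6617 nt (Larp1) and 8134 nt (Eif4g3). The 2 with a lower level had transcripts of 1322 nt (Eif1) and 1035 nt (Eif1b). With the median of all rows of similar length (10 equal groups) subtracted, the log2 fold was 0.43 for Eif4g1, 0.41 for Eif2ak4, 0.41 for Abcf1, 0.24 for Larp1 and 0.17 for Eif4g3, and it was -0.32 for Eif1 and -0.28 for Eif1b. On that scale Larp1b had the highest value, 0.55, all 5 Larp genes stayed above 0, 13 of the 20 start codon and ternary complex genes stood below it, and 40 of the 75 members were above it.

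**Figure D4:**
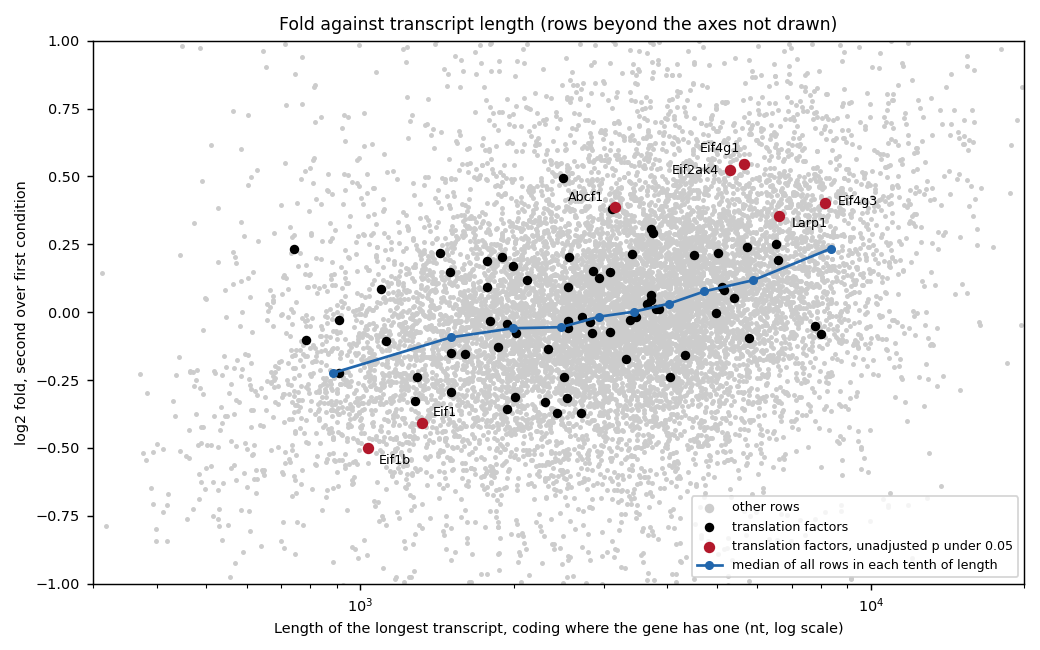
Log2 fold of the second over the first condition (y axis) against the length of the longest transcript in nt (x axis, log scale); grey points are other rows, black and red points the 75 translation factor genes, red those with an unadjusted p under 0.05, and the blue line joins the medians of all rows in 10 groups of equal size by length. The blue line climbs from -0.22 among the shortest to 0.23 among the longest transcripts, and the red points above 0 belong to transcripts of at least 3161 nt.

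Genes that act on these factors were read from a list of 57 symbols, of which 53 are among the rows. Of these, 1 rose and 1 fell, which is 3.77%, below the 4.99% of all rows called, so the count does not set the list apart. Mtor, the kinase of mTORC1, rose to 23.2 FPKM in the second condition, against 14.9 FPKM in the first, in the authors' deposited table (log2 fold 0.64, q = 0.0211). Ddit4, a stress-induced inhibitor of mTORC1, fell to 27.0 FPKM in the second condition, against 46.8 FPKM in the first, in the authors' deposited table (log2 fold -0.79, q = 0.00304). Mtor has a transcript of 8564 nt and Ddit4 one of 1755 nt. Rptor, the scaffold of mTORC1, stood at 17.8 FPKM in the second and 13.5 FPKM in the first condition of the authors' deposited table (log2 fold 0.40, p = 0.0286, q = 0.230). Akt1s1, which encodes the mTORC1 inhibitor PRAS40, stood at 232 FPKM in the second and 61.5 FPKM in the first condition of the authors' deposited table, which gives a log2 fold of 1.92 that was not called (p = 0.0229, q = 0.204).

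Of the 53 genes, those outside the list of mTORC1 and S6K genes included 0 called, and 5 had an unadjusted p under 0.05. Paip1, which binds poly(A)-binding protein and promotes its action, and Paip2, which inhibits it, were both lower in the second condition. Paip1 stood at 33.9 FPKM in the second and 48.0 FPKM in the first condition of the authors' deposited table (log2 fold -0.50, p = 0.00415, q = 0.0750). Paip2 stood at 86.3 FPKM in the second and 116.0 FPKM in the first condition of the authors' deposited table (log2 fold -0.43, p = 0.0187, q = 0.182). Ctif, a partner of the nuclear cap-binding complex, and Secisbp2, which serves selenocysteine decoding, had log2 folds of 0.44 and 0.40 in the authors' deposited table. Chac1, a target of the integrated stress response, stood at 1.49 FPKM in the second and 2.97 FPKM in the first condition of the authors' deposited table (q = 0.111), and the median log2 fold of the 9 measured genes of that response was -0.06.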

How the data were processed

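Per the submitters' processing notes, poly(A) RNA reads of 6 libraries were processed with TopHat2 2.0.9, Cufflinks 2.2.1 and Cuffdiff on mm10. Which annotation was used, whether strand was, and which libraries form each condition is not stated by any source used here. The deposited columns are, per the file headers, a level per condition (taken as FPKM), a log2 fold, a test statistic (a score), a p-value and a q-value. These are the authors' values, and since the labels do not tell whether passages were independent cultures, their p-values may reflect technical spread. The members and lists were chosen with earlier results of these data known. Every member could be named, and full values went to those with an unadjusted p under 0.05 and to the extremes of each role. Lengths, positions and overlaps come from GENCODE M21 (GRCm38), an annotation the authors may not have used, and 98.7% of rows had a length. Python 3.11.15, pandas 2.3.3 and scipy 1.17.1 were used, and the adjustment of p-values and the length step were tested on simulated data. A length step took off the median of all rows in the same of 10 length groups. A planned comparison of paralog proteins was not run.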

Additional observations from a re-analysis of the deposited data

How the results depend on the processing

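Counts of 0 members called as higher and 0 as lower held at a q of 0.01, with q recomputed over all rows, and with the levels, fold and symbol filters, although the filters and the stricter q could not add a call. Recomputing q over rows at 5 or at 50 FPKM or more, alternatives chosen after seeing the data, also gave 0; over all rows and over these, the q of Eif4g1 was 0.0694, 0.0706 and 0.0583. The median log2 fold of the members stayed within 0.1 of its value, between -0.0026 when centred and 0.0147 with the length medians subtracted, and was above 0 with that step and at 5 FPKM or more (0.0045). All 75 single folds kept their sign and call with a pseudocount of 1, which cannot turn a sign, with centring and with q recomputed over all rows. No paired analysis was possible because passages have no values of their own; leaving out each replicate was not run for the same reason. The depth is unknown.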
